A study of Mus musculus with 24 samples.

Results

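The expression of 46 genes of the Nodal, transforming growth factor-β (TGF-β) and bone morphogenetic protein (BMP) pathways was examined in optic vesicle (OV) organoids, which are aggregates of mouse embryonic stem cells (mESCs) that develop towards the early eye. The genes were taken by symbol from the deposited RNA-seq table, and all 46 were found, with 1 entry each among 49705 gene entries. All 46 entered the tests, since each reached 10 normalized counts in 3 or more libraries. The 24 libraries formed 8 groups of 3 replicates, all from the Rx-GFP K/I EB5 line, in which GFP is knocked into the Rax locus, so that GFP marks cells that express Rax, a transcription factor of the eye field (EF). Day 0 cells had the treatment label none, and all later samples were labelled as in OV organoid differentiation: live cells on days 1, 2 and 3, and on days 4 and 5 cells sorted by FACS into a GFP-positive and a GFP-negative gate. Samples of organoids pooled 24 of them, each begun on day 0 from 4500 cells in medium with 1.5% knockout serum replacement, and Matrigel was added to 2% on day 1, after the day 0 samples. That medium is the one the labels give, whereas the study's methods name a growth factor-free chemically defined medium for the first organoids and the serum replacement for knockout lines, so the medium of these samples is uncertain. By the study's methods, live day 3 cells were taken whatever their GFP, and the GFP-negative gate on days 4 and 5 also held cells with low GFP. All samples came from 1 reporter line, and the study describes the replicates as biological triplicates of organoid cultures.

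Nodal, activin and TGF-β ligands bind receptor pairs that phosphorylate Smad2 and Smad3, and BMP ligands bind receptor pairs that phosphorylate Smad1, Smad5 and Smad9. Both sets of Smads join Smad4 and act on target genes, among them genes that encode inhibitors of the same pathway, such as Lefty1, Lefty2, Smad6 and Smad7, and the Id genes downstream of BMP. In the early embryo Nodal is needed for mesoderm and endoderm, and inhibition of Nodal and BMP signals favours anterior neural tissue, from which the eye field arises. BMP4 and BMP7 later act in the eye itself.

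Summed normalized counts lay between 39849111 and 51587535 per library, and a value near 10 normalized counts rests on roughly as many reads, because 1 read was worth between 0.802 and 1.40 normalized counts. Day 0 replicate 1 stood apart: its rank correlations with the other day 0 libraries were 0.953 and 0.954, against 0.979 to 0.993 for the 22 other pairs within a group. In that library 10 of the 46 genes were more than 2 times higher, and 6 more than 2 times lower, than the mean of day 0 replicates 2 and 3. Without it 0 of the 65 calls described below were lost, and 10 further values passed the thresholds. Of these, 3 were changes from day 0 to day 3 and 7 lay in comparisons that hold no day 0 library, whose p-values share 1 estimate of the spread with it. Of the eye-field markers Rax, Pax6, Lhx2, Six3 and Six6, all 5 were called higher in GFP-positive cells on both days, with summed levels of 45893 to 47745 against 8869 to 10833 on day 4 and 54804 to 57307 against 8351 to 9094 on day 5. Rax enters these sums, and its difference follows from the sort, since its locus holds the GFP. The GFP-negative cells had higher levels of most of the other markers listed. On day 4 the 5 pluripotency markers (Nanog, Pou5f1, Zfp42, Esrrb, Klf4) summed to 11197 to 13343 in GFP-negative against 1020.3 to 1816 in GFP-positive cells, and on day 5 to 4226 to 5060.0 against 327 to 418. The 6 mesendoderm markers (T, Eomes, Mixl1, Gsc, Sox17, Foxa2) summed to 6277 to 9097 against 315 to 656 on day 4 and to 3203 to 4194 against 203 to 285 on day 5, and all 5 pluripotency and all 6 mesendoderm markers were called lower in GFP-positive cells on both days. The 4 extraembryonic endoderm markers (Gata4, Gata6, Sox7, Dab2) summed to 6581 to 7509.8 against 1428 to 2147 on day 5, with 3 of 4 called lower in GFP-positive cells on day 4 and 4 of 4 on day 5. The 4 endothelial markers (Kdr, Cdh5, Pecam1, Tal1) summed to 1510.2 to 2269 against 703 to 875 on day 5, with 2 of 4 called lower on each day. Of the 5 markers of surface ectoderm and neural crest (Tfap2a, Trp63, Krt5, Sox10, Foxd3), 3 were tested and 2 called lower on each day while Krt5 was at 0 in all day 4 libraries of both gates and in all day 5 GFP-positive libraries. Of the 3 neuronal markers (Tubb3, Dcx, Elavl3) 0 were called on either day. Their sums went the other way, at 3875 to 4535 in GFP-positive against 2306 to 2519 in GFP-negative cells on day 4. On day 5 these were 1758 to 1919 against 1489.6 to 1579. Tubb3 made up most of each sum, and on day 5 the means of Dcx and Elavl3 were lower in GFP-positive cells. From day 3 to the GFP-positive cells of day 4 all 5 eye-field markers were called higher, and all 5 pluripotency, 5 of the 6 mesendoderm, 3 of the 4 extraembryonic endoderm and 2 of the 4 endothelial markers lower, with 1 surface ectoderm or neural crest marker in each direction. From day 0 to day 3, 4 of the 5 pluripotency, 2 of the 4 extraembryonic endoderm, 2 of the 4 endothelial and 1 of the 3 neuronal markers were called lower, and 2 of the 5 eye-field and 4 of the 6 mesendoderm markers higher. From day 3 to the GFP-negative cells of day 4, 4 of the 5 eye-field markers were called higher (Lhx2 by 4.35, Pax6 by 4.09, Rax by 3.11 and Six3 by 2.04 on the log2 scale), as were T (1.91), Kdr (2.77), Tfap2a (2.05) and Sox10 (2.78), and Pou5f1 (-1.70) and Foxd3 (-2.43) were called lower. From day 4 to day 5 in GFP-positive cells, Six6 (4.71) and Kdr (2.93) were called higher and Pou5f1 (-3.32), Eomes (-1.88) and Elavl3 (-1.97) lower. Over the same step in GFP-negative cells, Tal1 (3.00) and Cdh5 (2.74) were called higher and Pou5f1 (-2.48), Mixl1 (-2.61), Eomes (-2.17) and Elavl3 (-1.58) lower. These marker levels move with the differences between the gates and between the days below, and their part in the results was not tested. In bulk samples, fewer cells of a type and less RNA per cell cannot be told apart.

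The sequences just upstream of 3 genes are shown because Nodal and Tdgf1 fell, and Grem1 rose most of the 46 genes, between day 3 and the day 4 GFP-positive cells. Positions here and below are in mm10. Each sequence is the 250 bases before the start annotated by RefSeq in GRCm38.p6, the same assembly, written 5′ to 3′ on the strand of the gene, with matches to the motifs CAGAC and GGCGCC in capitals.
Nodal (chr10:61417722-61417971, plus strand): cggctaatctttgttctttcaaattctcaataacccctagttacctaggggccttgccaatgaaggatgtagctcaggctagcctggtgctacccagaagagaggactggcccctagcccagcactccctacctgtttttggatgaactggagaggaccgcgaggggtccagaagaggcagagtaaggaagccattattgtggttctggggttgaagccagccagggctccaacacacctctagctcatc
Tdgf1 (chr9:110946159-110946408, minus strand): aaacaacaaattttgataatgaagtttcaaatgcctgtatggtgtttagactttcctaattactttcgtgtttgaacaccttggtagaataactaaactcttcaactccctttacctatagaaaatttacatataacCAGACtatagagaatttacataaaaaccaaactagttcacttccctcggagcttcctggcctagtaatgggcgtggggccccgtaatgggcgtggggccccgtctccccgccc
Grem1 (chr2:113758649-113758898, minus strand): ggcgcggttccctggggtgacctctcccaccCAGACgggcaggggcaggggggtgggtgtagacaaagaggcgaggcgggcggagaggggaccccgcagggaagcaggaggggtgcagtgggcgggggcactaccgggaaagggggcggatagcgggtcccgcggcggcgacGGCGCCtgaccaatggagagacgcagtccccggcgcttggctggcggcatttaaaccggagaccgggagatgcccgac
CAGAC is the core of the box to which Smad proteins bind, GGCGCC is a GC-rich site linked to BMP-activated Smads, AATNCACA is a core of the site of the Nodal partner FOXH1, and GTCTAGAC is the Smad palindrome. All were searched on both strands. The reference table held such windows for 31 of the 46 genes, 38 windows in all, and 32851 windows for all genes. CAGAC was present in 18 of the 38 windows (47.4%) and in 42.2% of all windows, and GGCGCC in 10 of 38 (26.3%) and in 9.59% of all. AATNCACA was in 3.18% and GTCTAGAC in 0.167% of all windows, and each was in 0 of the 38. None of the 4 motifs contains another. The Nodal window held none of them, Tdgf1 held 1 CAGAC and Grem1 held 1 CAGAC and 1 GGCGCC. The GC-rich site was found for 10 genes with different courses: Grem1, Smad9, Gdf1, Chrd, Id2, Id4, Smad5, Bmpr1a, Bmpr2 and Tgfbr1. A match is a description of the letters in the window.

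Changes are differences of log2(normalized count + 1) from 1 limma fit of all libraries over 21005 entries, with p-values adjusted by the Benjamini-Hochberg procedure over all entries, and calls needed both an adjusted p under 0.001 and a log2 fold change beyond 1.5 in either direction. The study used the same thresholds. The added 1 understates the fold changes of genes with few counts. From day 0 to day 3, 13 of the 46 genes were called (28.3%), against 12% of all entries tested, with 4 higher (background 5.91%) and 9 lower (background 6.12%). The single steps gave few calls: 2 of 46, both lower, from day 0 to day 1 (background 0.738%, with 0.343% higher and 0.395% lower), 2 of 46, both lower, from day 1 to day 2 (1.47%, with 0.943% higher and 0.528% lower), and 5 of 46 from day 2 to day 3 (1%), 2 higher (0.714%) and 3 lower (0.29%). From day 3 to the GFP-positive cells of day 4, 12 of the 46 genes were called (26.1%), against 10.7% of all entries tested, with 6 higher (3.33%) and 6 lower (7.36%). From day 3 to the GFP-negative cells of day 4, 5 of the 46 genes were called (10.9%), against 2.88% of all entries tested, all 5 higher (2%) and 0 lower (0.871%). Both of these comparisons share the day 3 libraries. Between the gates, 8 of the 46 genes were called (17.4%), against 3.96% of all entries tested on day 4, with 1 higher (0.328%) and 7 lower (3.63%) in GFP-positive cells. On day 5, 12 of the 46 genes were called (26.1%), against 5.01% of all entries tested, with 1 higher (0.4%) and 11 lower (4.61%). From day 4 to day 5, 5 of the 46 genes were called (10.9%), against 1.49% of all entries tested in GFP-positive cells (3 higher, 0.595%, and 2 lower, 0.89%), and 1 of the 46 genes was called (2.17%), against 1.27% of all entries tested in GFP-negative cells (0 higher, 0.762%, and 1 lower, 0.509%). The median log2 fold change of the 46 genes was 0.11 against -0.01 from day 3 to the GFP-positive cells of day 4 and -0.15 against -0.00169 between the day 5 gates, over 46 and 21005 entries. With an adjusted p under 0.05 and no fold threshold, the number of the 46 genes that passed was 6 from day 0 to day 1 (background 10%), 16 from day 1 to day 2 (16.6%), 16 from day 2 to day 3 (14.4%) and 31 from day 0 to day 3 (43.6%). By that threshold 33 changed from day 3 to the GFP-positive cells of day 4 (37.9%) and 19 to the GFP-negative cells (18.5%). Between the gates 24 differed on day 4 (15.7%) and 21 on day 5 (16%), and from day 4 to day 5 11 changed in GFP-positive cells (9.8%) and 13 in GFP-negative cells (10.2%). In at least 1 of the 11 comparisons 26 genes were called (background 21.5%), and 20 were called in none: Inhba, Tgfb2, Ltbp1, the receptors Acvr1, Acvr1b, Acvr2b, Bmpr1a, Bmpr2 and Tgfbr1, Smad1 to Smad5, Id1, Id2, Id4, Chrd, Twsg1 and Bambi. The 65 calls of these genes include 17 that were lost, with fewer samples and an unchanged fold change, in a fit of only the groups compared: Inhbb and Lefty1 from day 0 to day 1, Tgfb3, Smad7 and Grem1 from day 2 to day 3, Tgfb3, Smad6 and Grem1 from day 0 to day 3, Bmp2 from day 3 to the GFP-negative cells of day 4, Gdf3, Lefty1 and Lefty2 between the gates on day 4, Bmp6 and Gdf1 between the gates on day 5, Gdf6 and Lefty2 from day 4 to day 5 in the GFP-positive cells, Lefty2 from day 4 to day 5 in the GFP-negative cells. In the same fit 7 further values were called: Id2 and Nog from day 3 to the GFP-positive cells of day 4, Gdf3 from day 3 to the GFP-negative cells, Bmp5 between the day 4 gates, Tgfb2 between the day 5 gates, Fst from day 4 to day 5 in GFP-positive cells and Tdgf1 in GFP-negative cells. Without day 0 replicate 1 the changes from day 0 to day 3 were -3.20 for Nodal, -2.59 for Tdgf1, -2.74 for Gdf3, -5.04 for Lefty1, -4.66 for Lefty2, -2.08 for Bmp4, -1.79 for Smad6, -3.41 for Smad7, 1.56 for Tgfb3, 2.72 for Bmpr1b, 1.91 for Id3 and 2.47 for Grem1, and Id2, Fst and Bmp5 were called as well.

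**Figure D1:**
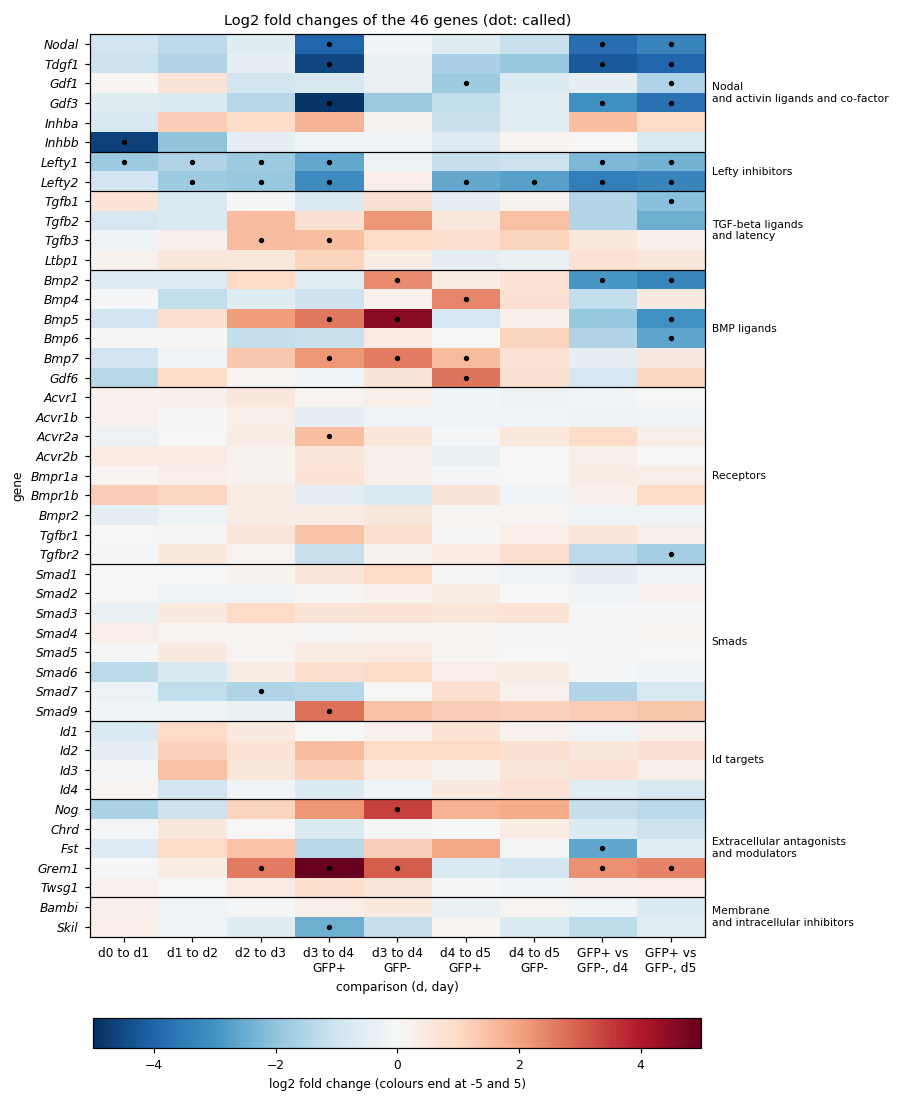
Log2 fold changes (colour, red higher and blue lower in the later day or in GFP-positive cells) of the 46 genes in rows, ordered by role, over 9 comparisons in columns, with a dot where a gene was called. The Nodal, Tdgf1, Gdf3 and Lefty rows are blue from day 3 to the GFP-positive cells of day 4 and between the gates, Grem1 is red, and most receptor and Smad rows are pale.

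Nodal and the genes around it were highest in mESCs, fell over the first 3 days, and then fell again in GFP-positive cells, while in GFP-negative cells of day 4 none of the 5 changed enough to be called, though Gdf3 was called lower there under 3 other settings. Nodal itself (ENSMUSG00000037171, chromosome 10 from 61417972 to 61425338, plus strand), a ligand that acts in gastrulation, had normalized counts of 2256, 4535 and 3737 on day 0, 1592, 2262 and 1393 on day 1, 638, 706 and 712 on day 2, and 525, 429 and 394 on day 3. It had 19.3, 47.6 and 23.2 in GFP-positive cells of day 4, 355, 420.2 and 443 in GFP-negative cells of day 4, 18.2, 13.8 and 23.5 in GFP-positive cells of day 5, and 223, 189 and 154 in GFP-negative cells of day 5. The GFP-positive libraries lay below every other library on both days, and the day 4 GFP-negative values overlapped those of day 3. The log2 fold change was -2.92 (SE 0.29, adjusted p = 4.62e-08, limma) from day 0 to day 3, -3.95 (SE 0.29, adjusted p = 4.47e-10, limma) from day 3 to the GFP-positive cells of day 4, and -0.14 (adjusted p = 0.817, limma) from day 3 to the GFP-negative cells of day 4. Between the gates, Nodal was 13.5 times lower in GFP-positive cells by the group means on day 4 and 10.2 times lower on day 5, log2 fold changes of -3.82 (SE 0.29, adjusted p = 5.33e-09, limma) and -3.30 (SE 0.29, adjusted p = 2.70e-08, limma).

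Tdgf1 (ENSMUSG00000032494, chromosome 9 from 110939603 to 110946158, minus strand), also known as Cripto, the co-receptor that Nodal needs, had 54446, 23236 and 21575 on day 0, 14357, 15411 and 13283 on day 1, 4614, 5175 and 5586 on day 2, and 3614, 3572 and 3978 on day 3. Day 0 replicate 1 was 2.43 times higher than the mean of the other day 0 libraries, and the change from day 0 to day 3 was -3.02 (SE 0.39, adjusted p = 2.41e-06, limma) with it and -2.59 without it, called in both. Sorted cells had 75.5, 280.1 and 188 in GFP-positive cells of day 4, 2579.9, 3178 and 3169 in GFP-negative cells of day 4, 28.1, 96.1 and 48.8 in GFP-positive cells of day 5, and 779, 895 and 748 in GFP-negative cells of day 5. The gates did not overlap, and the log2 fold changes between them were -4.21 (SE 0.39, adjusted p = 1.02e-07, limma) on day 4 and -3.95 (SE 0.39, adjusted p = 1.89e-07, limma) on day 5. Tdgf1 changed by -4.54 (SE 0.39, adjusted p = 7.59e-09, limma) from day 3 to the GFP-positive cells of day 4. Of the 31-base words in its transcripts, 12.6% also occur in other genes, mostly the pseudogene Tdgf1-ps1, so a part of its reads could not be placed uniquely. From day 4 to day 5 it changed by -1.62 (adjusted p = 0.00927, limma) in GFP-positive cells, called without GFP-positive replicate 1 of day 4 (-2.15), and by -1.88 (adjusted p = 0.0031, limma) in GFP-negative cells, called without day 0 replicate 1 and under quantile normalization (-2.00).

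Gdf3, a Nodal-related ligand of pluripotent cells, had 3789, 3966 and 3839 on day 0, 2675, 2219 and 2717 on day 1, 1500.3, 1640.4 and 1549 on day 2, and 575, 559 and 616 on day 3. Sorted cells had 7.47, 50.7 and 16.3 in GFP-positive cells of day 4, 190.0, 177 and 130.1 in GFP-negative cells of day 4, 7.69, 12.03 and 4.24 in GFP-positive cells of day 5, and 122, 125 and 89.4 in GFP-negative cells of day 5. Its change was -2.73 (SE 0.40, adjusted p = 1.16e-05, limma) from day 0 to day 3 and -4.89 (SE 0.40, adjusted p = 3.35e-09, limma) from day 3 to the GFP-positive cells of day 4. To the GFP-negative cells it changed by -1.83 (SE 0.40, adjusted p = 0.00246, limma), past the fold threshold and short of the p threshold. It was called with a pseudocount of 5 (-1.80), under quantile normalization (-1.92) and with only the groups compared (-1.83). The difference between the gates was -3.07 (adjusted p = 8.65e-06, limma) on day 4 and -3.73 (adjusted p = 5.53e-07, limma) on day 5, and the groups did not overlap.

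The Lefty genes, which encode secreted inhibitors of Nodal and are themselves targets of Nodal signalling, fell from day 0 to day 3 and were lower in the GFP-positive gate on both sorted days. Lefty1 (ENSMUSG00000038793, chromosome 1 from 180935022 to 180938400, plus strand) had 7901, 6265 and 5911 on day 0, 1999, 2345 and 1399 on day 1, 629, 646 and 693 on day 2, and 179, 178 and 197 on day 3. Lefty2 (ENSMUSG00000066652, chromosome 1 from 180893108 to 180899103, plus strand) had 9269, 10912 and 8944 on day 0, 5474, 5488 and 4186 on day 1, 1595, 1424 and 1376 on day 2, and 329.9, 421 and 424 on day 3. From day 0 to day 3 Lefty1 changed by -5.16 (SE 0.25, adjusted p = 1.36e-12, limma) and Lefty2 by -4.63 (SE 0.34, adjusted p = 7.26e-10, limma), the former 36.2 times lower and the latter 24.8 times lower by the group means. Of the steps, Lefty1 was called from day 0 to day 1 at -1.83 (adjusted p = 5.38e-05, limma), from day 1 to day 2 at -1.51 (adjusted p = 0.000227, limma) and from day 2 to day 3 at -1.82 (adjusted p = 5.03e-05, limma), and Lefty2 from day 1 to day 2 at -1.78 (adjusted p = 0.00096, limma) and from day 2 to day 3 at -1.91 (adjusted p = 0.000717, limma). The call of Lefty1 from day 1 to day 2 was lost when any 1 of the 6 libraries compared, except day 1 replicate 3, was left out (values from -1.55 to -1.35), and under quantile normalization (-1.45) or with TMM factors (-1.49). The call of Lefty2 from day 1 to day 2 was lost when any 1 of the 6 libraries compared was left out (values from -1.91 to -1.71), and with a pseudocount of 0.5 (-1.78), with no filter on low values (-1.78), with TMM factors (-1.75) or without the mean-variance trend (-1.78), and that from day 2 to day 3 when any 1 of the 6 libraries compared was left out (values from -1.97 to -1.79), and with no filter on low values (-1.91) or without the mean-variance trend (-1.91).

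In sorted cells, Lefty1 had 28.9, 42.5 and 22.8 in GFP-positive cells of day 4, 192, 146 and 118 in GFP-negative cells of day 4, 15.9, 15.1 and 9.17 in GFP-positive cells of day 5, and 93.8, 65.6 and 58.2 in GFP-negative cells of day 5. The corresponding Lefty2 values were 25.7, 86.9 and 35.7 in GFP-positive cells of day 4, 323, 671 and 533 in GFP-negative cells of day 4, 7.39, 8.90 and 4.09 in GFP-positive cells of day 5, and 50.4, 95.9 and 82.5 in GFP-negative cells of day 5. Each gene was lower in all 3 GFP-positive than in all 3 GFP-negative libraries on both days. The differences were -2.26 (adjusted p = 1.00e-06, limma) and -2.36 (adjusted p = 4.51e-07, limma) for Lefty1 and -3.47 (adjusted p = 2.15e-07, limma) and -3.31 (adjusted p = 3.11e-07, limma) for Lefty2. Changes from day 3 to the GFP-positive cells of day 4 were -2.56 (adjusted p = 4.22e-08, limma) for Lefty1 and -3.14 (adjusted p = 2.12e-07, limma) for Lefty2. Lefty2 also fell from day 4 to day 5 in both gates, with changes of -2.56 (SE 0.34, adjusted p = 2.65e-05, limma) in GFP-positive and -2.71 (SE 0.34, adjusted p = 1.66e-05, limma) in GFP-negative cells, the only one of the 46 genes called in the GFP-negative cells over that step. The genes are close copies: 23.1% of the 31-base words of Lefty1 transcripts also occur in Lefty2, and 15.4% of those of Lefty2 in Lefty1, so reads from the shared stretches were divided between them by estimate.

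**Figure D2:**
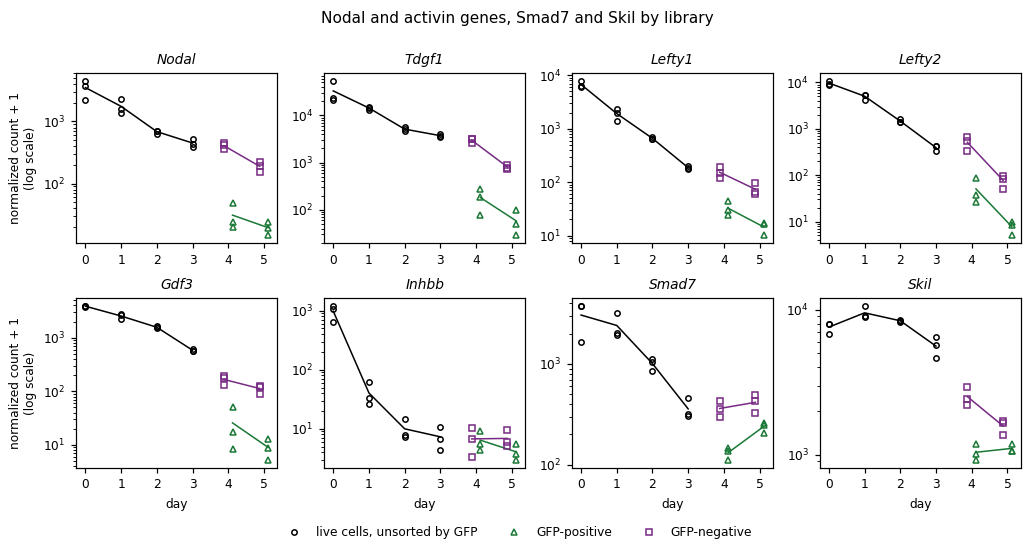
Normalized count + 1 (vertical, log scale) by day (horizontal) for Nodal, Tdgf1, Lefty1, Lefty2, Gdf3, Inhbb, Smad7 and Skil, with 1 point per library and lines through the group means. GFP-positive cells (triangles) lie below GFP-negative cells (squares) on both days for Nodal, Tdgf1, Lefty1, Lefty2 and Gdf3, and Inhbb is near the bottom of its range from day 2 on.

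The activin subunit gene Inhbb had the largest fall before sorting. Its normalized counts were 638, 1220.2 and 1088 on day 0, 32.7, 60.5 and 24.9 on day 1, 6.88, 13.9 and 6.14 on day 2, and 9.78, 3.43 and 5.71 on day 3, so that every day 1 library lay below every day 0 library. The change was -4.65 (SE 0.48, adjusted p = 1.67e-06, limma) from day 0 to day 1 and -7.11 (SE 0.48, adjusted p = 1.75e-10, limma) from day 0 to day 3. Without day 0 replicate 1 the values were -4.93 and -7.40. In sorted cells Inhbb lay between 1.95 and 9.16 in all libraries. Inhba, which encodes the other main activin subunit, was low throughout, with 7.47, 10.5 and 7.78 on day 3, 38.8, 25.5 and 26.5 in GFP-positive cells of day 4, and 16.9, 4.99 and 10.9 in GFP-negative cells of day 4, and its changes of 1.70 (adjusted p = 0.00739, limma) from day 3 to the GFP-positive cells of day 4 and 1.50 (adjusted p = 0.0354, limma) between the day 4 gates were not called. Gdf1, a partner of Nodal, had 215, 334 and 247 on day 0, 374, 233 and 256 on day 1, 467, 418 and 455 on day 2, and 313, 188 and 216 on day 3. Sorted cells had 136, 129 and 132 in GFP-positive cells of day 4, 196, 142 and 215 in GFP-negative cells of day 4, 38.4, 32.0 and 43.4 in GFP-positive cells of day 5, and 141, 96.2 and 102 in GFP-negative cells of day 5, and the GFP-positive libraries were below the GFP-negative libraries on both days. Its change from day 4 to day 5 in GFP-positive cells was -1.79 (SE 0.23, adjusted p = 1.42e-05, limma) and its difference between the day 5 gates was -1.54 (SE 0.23, adjusted p = 3.18e-05, limma). The latter was lost without day 5 GFP-negative replicate 1 (-1.37) or day 5 GFP-positive replicate 2 (-1.43), and with a pseudocount of 5 (-1.45) or under quantile normalization (-1.04). All exonic bases of Gdf1 lie within those of Cers1, a ceramide synthase gene on the same strand, so its reads cannot be told apart from those of Cers1.

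Of the TGF-β ligands, Tgfb3 rose to day 3 and again to the day 4 GFP-positive cells, while Tgfb1 was lower in GFP-positive cells on day 5. Tgfb3 had 16.8, 24.0 and 12.4 on day 0, 19.2, 9.17 and 16.3 on day 1, 17.2, 24.6 and 11.4 on day 2, and 61.1, 49.0 and 50.4 on day 3. It then had 135, 150.3 and 179 in GFP-positive cells of day 4, 98.8, 113 and 111 in GFP-negative cells of day 4, 292, 246 and 294 in GFP-positive cells of day 5, and 265, 215 and 221 in GFP-negative cells of day 5. Every library of days 4 and 5 lay above every earlier library. The changes were 1.59 (SE 0.28, adjusted p = 0.000541, limma) from day 2 to day 3, 1.58 (SE 0.28, adjusted p = 8.78e-05, limma) from day 0 to day 3 and 1.51 (SE 0.28, adjusted p = 0.000157, limma) from day 3 to the GFP-positive cells of day 4, all near the fold threshold. The call from day 2 to day 3 was lost when any 1 of the 6 libraries compared, except day 2 replicate 2, was left out (values from 1.33 to 1.65), and with a pseudocount of 5 (1.40), under quantile normalization (1.63) or with the replicate number as a block (1.59). That from day 0 to day 3 was lost without day 0 replicate 3 (1.36) or day 3 replicate 1 (1.48), and with a pseudocount of 5 (1.39), and that from day 3 to the GFP-positive cells of day 4 without day 3 replicate 2 (1.46), day 3 replicate 3 (1.48) or day 4 GFP-positive replicate 3 (1.40), and with a pseudocount of 5 (1.45). Tgfb1 had 120.3, 406 and 162 on day 0, 279, 422 and 269 on day 1, 168, 195 and 203 on day 2, and 185, 204 and 141 on day 3. Sorted cells had 87.4, 127 and 109 in GFP-positive cells of day 4, 169.6, 325 and 479 in GFP-negative cells of day 4, 84.8, 79.3 and 67.6 in GFP-positive cells of day 5, and 407, 354 and 254 in GFP-negative cells of day 5. The gates overlapped on neither day, and the day 5 difference was -2.10 (SE 0.36, adjusted p = 0.000195, limma). That call was lost without day 5 GFP-negative replicate 1 (-1.95), day 5 GFP-negative replicate 2 (-2.05), day 5 GFP-positive replicate 2 (-2.12) or day 5 GFP-positive replicate 3 (-2.00), and under quantile normalization (-1.69). Tgfb2 had 159, 241 and 149 in GFP-positive cells of day 5, and 1080.1, 1266 and 682 in GFP-negative cells of day 5, which did not overlap, and its difference of -2.44 (SE 0.52, adjusted p = 0.00179, limma) missed the p threshold. That difference was called without day 0 replicate 1, as was the change of Tgfb2 from day 3 to the GFP-negative cells of day 4 (2.22). Tgfb1 was called between the day 4 gates without GFP-negative replicate 1 of that day (-1.88). Ltbp1, which holds latent TGF-β in the matrix, had group means from 634 ± 98.6 on day 0 to 3245 ± 83.2 in GFP-positive cells of day 4 (SD, n = 3 each). Its largest change was 1.26 (SE 0.12, adjusted p = 3.18e-08, limma) from day 0 to day 3, short of the fold threshold.

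The BMP ligands followed different courses. Bmp7 rose in both gates, Bmp4 fell over days 0 to 3 and rose in GFP-positive cells on day 5, and Bmp2, Bmp5 and Bmp6 were higher in GFP-negative cells on day 5. Bmp7 (ENSMUSG00000008999, chromosome 2 from 172868012 to 172940321, minus strand), which encodes a ligand needed for eye formation in the mouse, had 269, 256 and 194 on day 0, 111, 122 and 134 on day 1, 113, 92.7 and 114 on day 2, and 304, 275 and 247 on day 3. It rose to 1101, 1236 and 1340.0 in GFP-positive cells of day 4, 1388, 1661 and 1832 in GFP-negative cells of day 4, 3722, 3538 and 3825 in GFP-positive cells of day 5, and 2747, 2745 and 2576 in GFP-negative cells of day 5. All libraries of days 4 and 5 were above all earlier libraries, and day 5 was above day 4 within each gate. The changes were 2.15 (SE 0.14, adjusted p = 7.34e-11, limma) from day 3 to the GFP-positive cells of day 4, 2.56 (SE 0.14, adjusted p = 6.03e-11, limma) to the GFP-negative cells of day 4, 1.60 (SE 0.14, adjusted p = 9.55e-08, limma) from day 4 to day 5 in GFP-positive cells and 0.73 (SE 0.14, adjusted p = 0.00117, limma) in GFP-negative cells, the last not called. Between the gates it differed by -0.40 (adjusted p = 0.0518, limma) on day 4 and 0.46 (adjusted p = 0.0253, limma) on day 5.

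Bmp4 (ENSMUSG00000021835, chromosome 14 from 46383520 to 46390669, minus strand), which encodes a ligand that acts in dorsal patterning and in lens and retina induction, had 1652, 2328 and 2212 on day 0, 1936, 1847 and 1949 on day 1, 767, 828 and 855 on day 2, and 511, 545 and 555 on day 3. From day 0 to day 3 Bmp4 changed by -1.93 (SE 0.20, adjusted p = 1.40e-07, limma). Sorted cells had 217, 267 and 308 in GFP-positive cells of day 4, and 483, 634 and 779 in GFP-negative cells of day 4, where every GFP-positive library was below every GFP-negative library. On day 5 they had 1569.5, 1383 and 1331 in GFP-positive cells of day 5, and 1203, 1355 and 688 in GFP-negative cells of day 5, where the gates overlapped, as GFP-negative replicate 2 lay above GFP-positive replicate 3. The change from day 4 to day 5 was 2.44 (SE 0.20, adjusted p = 6.28e-08, limma) in GFP-positive cells, 5.41 times by the group means, and 0.74 (SE 0.20, adjusted p = 0.021, limma) in GFP-negative cells. The difference between the gates was -1.24 (adjusted p = 0.000123, limma) on day 4 and 0.45 (adjusted p = 0.153, limma) on day 5. Neither was called. The change of that difference between the days was 1.70 (SE 0.29, adjusted p = 0.00306, limma), past the fold threshold and short of the p threshold.

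Bmp2, a ligand close to Bmp4 in sequence, had 128, 39.2 and 20.4 on day 0, 28.2, 25.7 and 35.8 on day 1, 19.5, 22.5 and 14.0 on day 2, and 33.0, 53.6 and 30.4 on day 3. It then had 21.6, 26.6 and 30.9 in GFP-positive cells of day 4, 124, 235 and 279.9 in GFP-negative cells of day 4, 26.3, 42.1 and 34.4 in GFP-positive cells of day 5, and 302, 379 and 312 in GFP-negative cells of day 5. On days 4 and 5 the GFP-negative libraries lay above all GFP-positive and day 3 libraries. The change to the GFP-negative cells of day 4 was 2.38 (SE 0.44, adjusted p = 0.000535, limma), and the differences between the gates were -2.90 (SE 0.44, adjusted p = 5.49e-05, limma) on day 4 and -3.25 (SE 0.44, adjusted p = 1.21e-05, limma) on day 5. The change from day 3 was lost without day 3 replicate 1 (2.29), day 3 replicate 3 (2.23), day 4 GFP-negative replicate 2 (2.27) or day 4 GFP-negative replicate 3 (2.14), and under quantile normalization (2.29).

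Bmp5, a further BMP ligand, had 10.1, 2.89 and 2.70 on day 0, 4.29, 0 and 3.29 on day 1, 8.31, 2.44 and 2.67 on day 2, and 27.4, 19.1 and 15.2 on day 3. Sorted cells had 106, 147 and 138 in GFP-positive cells of day 4, 388, 562 and 509.8 in GFP-negative cells of day 4, 62.0, 78.8 and 72.3 in GFP-positive cells of day 5, and 476, 718 and 563 in GFP-negative cells of day 5. It rose from day 3 to day 4 in both gates, with changes of 2.63 (SE 0.51, adjusted p = 0.000284, limma) in GFP-positive and 4.52 (SE 0.51, adjusted p = 1.81e-06, limma) in GFP-negative cells, and the GFP-negative values were higher in all libraries on both days. The difference was -1.89 (adjusted p = 0.0129, limma) on day 4, not called, and -3.01 (SE 0.51, adjusted p = 0.000164, limma) on day 5. On day 4 it was called with a pseudocount of 5 (-1.86) and with only the groups compared (-1.89). Its day 0 to day 3 change was called without day 0 replicate 1, at 2.47. The call to the GFP-positive cells of day 4 was lost without day 3 replicate 2 (2.60), day 3 replicate 3 (2.45), day 4 GFP-positive replicate 2 (2.54) or day 4 GFP-positive replicate 3 (2.59), and with a pseudocount of 0.5 (2.66), and the day 5 call without day 5 GFP-negative replicate 2 (-2.85) or day 5 GFP-positive replicate 1 (-2.92), and with a pseudocount of 0.5 (-3.02). An antisense gene, Gm26903, overlaps 46.7% of the exonic bases of Bmp5, and without stated strandedness its reads cannot be told apart from those of Bmp5. 

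Bmp6 had 140.3, 166 and 88.3 on day 0, 132, 124 and 145 on day 1, 151, 132 and 140.4 on day 2, and 94.2, 43.4 and 54.7 on day 3. Sorted cells had 18.8, 32.2 and 33.5 in GFP-positive cells of day 4, 66.1, 72.2 and 109 in GFP-negative cells of day 4, 21.3, 55.0 and 16.8 in GFP-positive cells of day 5, and 172, 168 and 181 in GFP-negative cells of day 5. The gates overlapped on neither day, and the difference was -1.52 (adjusted p = 0.00423, limma) on day 4 and -2.64 (SE 0.36, adjusted p = 1.09e-05, limma) on day 5, of which the latter was called. Gdf6, a BMP-family ligand with a part in eye development, was low, with 26.5, 12.7 and 6.21 on day 0, 6.77, 2.75 and 4.33 on day 1, 11.5, 7.50 and 8.78 on day 2, and 18.3, 9.12 and 5.70 on day 3. Sorted cells had 4.54, 12.8 and 10.3 in GFP-positive cells of day 4, 15.6, 14.6 and 18.7 in GFP-negative cells of day 4, 54.5, 65.6 and 61.5 in GFP-positive cells of day 5, and 33.6, 24.9 and 26.3 in GFP-negative cells of day 5. It was below the GFP-negative cells on day 4 and above them on day 5 in all libraries. Its rise from day 4 to day 5 in GFP-positive cells was 2.69 (SE 0.45, adjusted p = 0.00035, limma), which was lost when any 1 of the 6 libraries compared, except day 4 GFP-positive replicate 2, was left out (values from 2.30 to 2.81), and with no filter on low values (2.69).

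**Figure D3:**
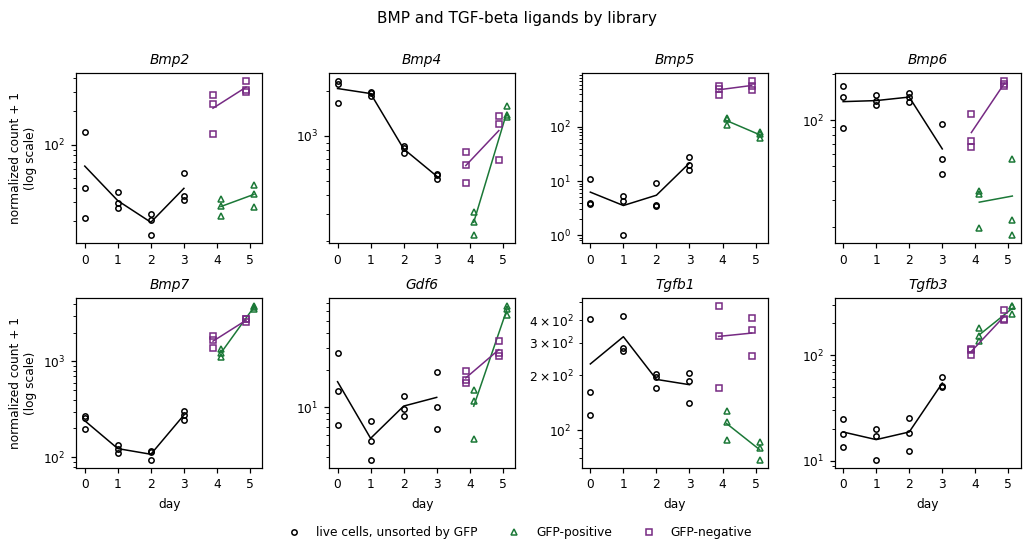
Normalized count + 1 (vertical, log scale) by day (horizontal) for Bmp2, Bmp4, Bmp5, Bmp6, Bmp7, Gdf6, Tgfb1 and Tgfb3, with 1 point per library and lines through the group means. Bmp4, Bmp7 and Gdf6 in GFP-positive cells (triangles) cross by their means from below to above GFP-negative cells (squares) between days 4 and 5, and Bmp2, Bmp5 and Bmp6 stay below.

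Grem1, a secreted antagonist, was the only one of the 46 genes called higher in the GFP-positive gate on either day. Grem1 (ENSMUSG00000074934, chromosome 2 from 113746164 to 113758646, minus strand), which encodes the BMP antagonist Gremlin 1, had 2.79, 6.33 and 11.5 on day 0, 5.64, 6.42 and 5.42 on day 1, 4.59, 9.64 and 10.5 on day 2, and 31.8, 76.5 and 58.0 on day 3. It then had 1958, 2241 and 2067 in GFP-positive cells of day 4, 415, 476 and 406 in GFP-negative cells of day 4, 1305, 1097 and 1471 in GFP-positive cells of day 5, and 145, 297 and 270.2 in GFP-negative cells of day 5. The GFP-positive libraries were above the GFP-negative libraries on both days, and all sorted libraries were above every day 3 library. The change from day 3 to day 4 was 5.30 (SE 0.37, adjusted p = 2.78e-10, limma) in GFP-positive cells, 37.7 times by the group means, and 3.02 (SE 0.37, adjusted p = 5.21e-06, limma) in GFP-negative cells. Between the gates it was 4.83 times higher in GFP-positive cells on day 4 and 5.44 times higher on day 5, log2 fold changes of 2.27 (SE 0.37, adjusted p = 0.000122, limma) and 2.49 (SE 0.37, adjusted p = 3.59e-05, limma). It had already changed by 2.59 (SE 0.37, adjusted p = 7.90e-05, limma) from day 2 to day 3 and 2.92 (SE 0.37, adjusted p = 1.74e-06, limma) from day 0. The call from day 2 to day 3 was lost without day 2 replicate 1 (2.26) or day 3 replicate 2 (2.32).

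Nog, which encodes Noggin, an antagonist that holds BMP ligands outside the cell, had 123, 19.0 and 7.99 on day 0, 15.9, 3.68 and 9.78 on day 1, 5.74, 4.28 and 1.76 on day 2, and 8.53, 9.05 and 9.44 on day 3, where day 0 replicate 1 lay far above the other libraries. Sorted cells had 31.9, 49.4 and 59.3 in GFP-positive cells of day 4, 76.7, 115 and 131 in GFP-negative cells of day 4, 132, 153 and 174 in GFP-positive cells of day 5, and 395, 326 and 447 in GFP-negative cells of day 5, all above every day 3 library. The change to the GFP-negative cells of day 4 was 3.40 (SE 0.62, adjusted p = 0.00046, limma) and that to GFP-positive cells 2.21 (SE 0.62, adjusted p = 0.00728, limma), of which only the former was called. It was lost when any 1 of the 6 libraries compared was left out (values from 3.24 to 3.63), and under quantile normalization (3.34). The change to the GFP-positive cells was called without day 0 replicate 1, at 2.21. Between the gates the differences were -1.19 (adjusted p = 0.244, limma) on day 4 and -1.34 (adjusted p = 0.172, limma) on day 5, although the libraries did not overlap on either day.

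Fst, which encodes Follistatin, an antagonist of activin that also binds BMPs, had 754, 139.7 and 89.1 on day 0, 198, 71.4 and 174 on day 1, 209, 335 and 268 on day 2, and 769.5, 679.9 and 725 on day 3. In sorted cells it had 199.9, 315 and 327 in GFP-positive cells of day 4, 1518, 1959.8 and 1563 in GFP-negative cells of day 4, 921, 1295 and 993 in GFP-positive cells of day 5, and 1657, 1173 and 1924 in GFP-negative cells of day 5. On day 4 it was 5.99 times lower in GFP-positive cells, a log2 fold change of -2.60 (SE 0.50, adjusted p = 0.000709, limma). That call was lost when any 1 of the 6 libraries compared was left out (values from -2.73 to -2.38), and with no filter on low values (-2.60), under quantile normalization (-2.56), without the mean-variance trend (-2.60) or with the replicate number as a block (-2.60). On day 5 the gates differed by -0.55 (adjusted p = 0.554, limma), with GFP-negative replicate 2 below the highest GFP-positive library. Without day 0 replicate 1, Fst was called from day 0 to day 3 (2.69) and from day 4 to day 5 in GFP-positive cells (1.95). Chrd, which encodes Chordin, was never called and had its largest change between the day 5 gates, with 206, 154 and 164 in GFP-positive cells of day 5, and 400.1, 314 and 405 in GFP-negative cells of day 5 and a log2 fold change of -1.09 (SE 0.19, adjusted p = 0.000216, limma). Twsg1, which encodes a partner of Chordin, had group means between 2113 ± 180.3 on day 0 and 5863 ± 282 in GFP-positive cells of day 4 (SD, n = 3 each) and a change of 0.86 (adjusted p = 2.60e-05, limma) from day 3 to the latter, short of the fold threshold.

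Among the inhibitors within the cell, Smad6 and Smad7 fell from day 0 to day 3, and Skil fell from day 3 to the day 4 GFP-positive cells. Smad7, which blocks type I receptors of both branches, had 1651, 3778 and 3709 on day 0, 1946, 3215 and 2044 on day 1, 841, 1048 and 1129 on day 2, and 303, 455 and 315 on day 3, and a change from day 0 to day 3 of -3.02 (SE 0.27, adjusted p = 1.11e-08, limma). The step from day 2 to day 3 was -1.50 (SE 0.27, adjusted p = 0.000667, limma), at the edge of the fold threshold, and its call was lost when any 1 of the 6 libraries compared was left out (values from -1.69 to -1.40), and with a pseudocount of 5 (-1.49), with TMM factors (-1.47) or without the mean-variance trend (-1.50). In sorted cells Smad7 had 111, 147 and 136 in GFP-positive cells of day 4, 299, 358 and 425 in GFP-negative cells of day 4, 208, 261 and 249.5 in GFP-positive cells of day 5, and 493, 429 and 324 in GFP-negative cells of day 5, lower in all GFP-positive libraries on both days, but the differences of -1.45 (adjusted p = 0.000474, limma) and -0.78 (adjusted p = 0.0528, limma) were not called. Leaving out GFP-negative replicate 1 of day 4 made the first a call (-1.58). The change of Smad7 from day 3 to the GFP-positive cells of day 4 was -1.43 (adjusted p = 0.000207, limma), and it was called without day 3 replicate 1 (-1.53), without day 3 replicate 3 (-1.50) or without GFP-positive replicate 2 of day 4 (-1.51). Smad6, which blocks mainly the BMP branch, had 571, 685 and 556 on day 0, 269, 252 and 213 on day 1, 174, 139 and 110.5 on day 2, and 214, 187 and 140.2 on day 3. Sorted cells had 331, 339.6 and 313 in GFP-positive cells of day 4, 274, 331 and 440.5 in GFP-negative cells of day 4, 432, 358 and 438 in GFP-positive cells of day 5, and 593, 459.9 and 324 in GFP-negative cells of day 5, above all day 3 libraries. Its change from day 0 to day 3 was -1.75 (SE 0.22, adjusted p = 1.25e-06, limma).

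Skil, which encodes the Smad co-repressor SnoN, had 6792, 7952 and 8012 on day 0, 8985, 10671 and 8889 on day 1, 8263, 8362 and 8542 on day 2, and 4667, 5682 and 6485 on day 3. Sorted cells had 919, 1011 and 1189 in GFP-positive cells of day 4, 2924, 2425 and 2196 in GFP-negative cells of day 4, 1181, 1068 and 1068 in GFP-positive cells of day 5, and 1376, 1648 and 1712 in GFP-negative cells of day 5. Every sorted library was below every earlier library. Its change from day 3 to day 4 was -2.43 (SE 0.13, adjusted p = 7.47e-12, limma) in GFP-positive and -1.15 (SE 0.13, adjusted p = 2.47e-06, limma) in GFP-negative cells, of which the former was called. Bambi, a decoy receptor, lay between 515 and 1190.4 in all libraries and was never called. Its largest change was -0.70 (adjusted p = 0.0174, limma), between the day 5 gates.

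Of the 9 receptor genes, 3 were called in at least 1 comparison, against 21.5% of all entries: Bmpr1b rose from day 0 to day 3, Acvr2a rose in GFP-positive cells of day 4, and Tgfbr2 was lower in GFP-positive cells on day 5. Bmpr1b, a type I BMP receptor, had 24.3, 31.2 and 17.9 on day 0, 55.8, 51.3 and 66.1 on day 1, 126, 120.0 and 124 on day 2, and 131, 182 and 176 on day 3. It was higher in each later group than on day 0, with a change from day 0 to day 3 of 2.70 (SE 0.21, adjusted p = 1.54e-09, limma), and in sorted cells its group means lay between 91.7 ± 21.1 in GFP-negative cells of day 5 and 182 ± 3.71 in GFP-positive cells of day 5 (SD, n = 3 each). Acvr2a, a type II receptor for activins, Nodal and BMPs, had 607, 662 and 721 on day 0, 540.3, 482 and 602 on day 1, 524, 528 and 589 on day 2, and 591, 771 and 789 on day 3. Sorted cells had 1892, 1989 and 2264 in GFP-positive cells of day 4, 1124, 1202 and 911 in GFP-negative cells of day 4, 1916, 1853 and 1899.8 in GFP-positive cells of day 5, and 1309.6, 1611 and 1716 in GFP-negative cells of day 5. It had a change from day 3 to the GFP-positive cells of day 4 of 1.52 (SE 0.14, adjusted p = 1.24e-08, limma). That call was lost without day 3 replicate 1 (1.39) or day 4 GFP-positive replicate 3 (1.45). Tgfbr2, the type II TGF-β receptor, had 199, 91.3 and 81.8 on day 0, 121, 84.9 and 115 on day 1, 171, 159 and 135 on day 2, and 188, 194 and 138 on day 3. Sorted cells had 84.8, 66.8 and 83.4 in GFP-positive cells of day 4, 172, 215 and 192 in GFP-negative cells of day 4, 113, 104 and 98.5 in GFP-positive cells of day 5, and 429, 302 and 328 in GFP-negative cells of day 5, with no overlap between the gates. The day 5 difference was -1.73 (SE 0.25, adjusted p = 3.20e-05, limma), which was lost under quantile normalization (-1.39). Its difference on day 4 was -1.29 (adjusted p = 0.000879, limma). Tgfbr1, the type I TGF-β receptor, went, short of the fold threshold, from 1793, 2619 and 3019.7 on day 3 to 5982, 6529 and 7224 in GFP-positive cells of day 4, a change of 1.44 (SE 0.18, adjusted p = 1.05e-06, limma). It was called without day 3 replicate 3 (1.60) or without GFP-positive replicate 1 of day 4 (1.50). In GFP-negative cells Tgfbr1 had 4748, 4908 and 3529.9 on day 4, and 4422, 6209 and 6129 on day 5. These values too were above every day 3 library. For the remaining 5 receptors, Acvr1, Acvr1b, Acvr2b, Bmpr1a and Bmpr2, the largest change in any comparison was 1.00 on the log2 scale, that of Acvr1 from day 0 to day 3 (adjusted p = 1.40e-06, limma). Bmpr1a, the type I receptor for Bmp2 and Bmp4, had group means from 3567 ± 482 on day 0 to 8836 ± 372 in GFP-positive cells of day 4 (SD, n = 3 each).

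Of the 8 Smad genes, 3 were called in at least 1 comparison, the signal carrier Smad9 and the inhibitory Smad6 and Smad7, against 21.5% of all entries. The 5 other signal carriers, Smad1, Smad2, Smad3, Smad4 and Smad5, were called in none. Smad9, a BMP-activated Smad, was low before sorting, with 15.4, 45.6 and 35.5 on day 0, 16.9, 43.1 and 26.0 on day 1, 18.3, 30.0 and 19.3 on day 2, and 19.6, 18.3 and 14.3 on day 3. Sorted cells had 107, 131 and 131 in GFP-positive cells of day 4, 48.5, 54.6 and 46.8 in GFP-negative cells of day 4, 280.3, 291 and 303 in GFP-positive cells of day 5, and 95.0, 143 and 99.7 in GFP-negative cells of day 5. GFP-positive libraries were above GFP-negative libraries on both days without overlap. The change from day 3 to the GFP-positive cells of day 4 was 2.76 (SE 0.33, adjusted p = 9.51e-07, limma), 7.08 times by the group means. To GFP-negative cells it was 1.48 (adjusted p = 0.00307, limma), and the differences between the gates of 1.28 (adjusted p = 0.0102, limma) and 1.39 (adjusted p = 0.00506, limma) were under the fold threshold. Smad3, the Nodal and TGF-β effector, went from 579, 1414 and 1069 on day 0, and 2095, 2180.5 and 1892 on day 3 to 4607, 5669.6 and 4516 in GFP-positive cells of day 5, and 6195, 5164 and 4693 in GFP-negative cells of day 5, and its change from day 0 to day 3 was 1.10 (SE 0.21, adjusted p = 0.000177, limma). Smad1 changed most from day 3 to the GFP-negative cells of day 4, by 1.02 (SE 0.12, adjusted p = 1.92e-06, limma). Smad4, the partner of both branches, had group means between 3509 ± 746 on day 0 and 5810.4 ± 648 in GFP-negative cells of day 4, and Smad2 between 1807 ± 79.2 on day 3 and 2434 ± 199.7 in GFP-positive cells of day 5 (SD, n = 3 each). Smad5 changed by 0.55 (adjusted p = 0.0102, limma) from day 0 to day 3.

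The Id genes, which encode inhibitors of basic helix-loop-helix factors and are induced by BMP, followed different courses. Id3 (ENSMUSG00000007872, chromosome 4 from 136143497 to 136145755, plus strand) rose, with 1226, 1503 and 1402 on day 0, 1555, 923 and 1654 on day 1, 4025, 3494 and 3431 on day 2, and 6590.3, 5277 and 4642 on day 3. It then had 12394, 12143 and 11559 in GFP-positive cells of day 4, 6342, 7025 and 8616 in GFP-negative cells of day 4, 13084, 12432 and 15293 in GFP-positive cells of day 5, and 11392, 10275 and 11709.8 in GFP-negative cells of day 5. Its change from day 1 to day 2 was 1.45 (adjusted p = 6.94e-06, limma), called without day 1 replicate 1 (1.56) or without day 1 replicate 3 (1.60). From day 2 on, every library was above every library of days 0 and 1. Its change from day 0 to day 3 was 1.99 (SE 0.17, adjusted p = 9.05e-09, limma), the only Id change that was called with all libraries, and the gates differed by 0.73 (SE 0.17, adjusted p = 0.00519, limma) on day 4 and 0.29 (adjusted p = 0.328, limma) on day 5. Id2 had 1202, 268 and 249.5 on day 0, 1057, 1170.3 and 1062 on day 3, 3429, 3492 and 2833 in GFP-positive cells of day 4, 1754, 2399 and 2436 in GFP-negative cells of day 4, 5918, 6658 and 6636 in GFP-positive cells of day 5, and 3155, 4198 and 3908 in GFP-negative cells of day 5. Day 0 replicate 1 lay above the day 3 libraries, and the other day 0 libraries lay below them. The change of Id2 from day 0 to day 3 was 1.34 (adjusted p = 0.00611, limma) and 2.08 without day 0 replicate 1, where it was called. Its change from day 3 to the GFP-positive cells of day 4 was 1.56 (SE 0.37, adjusted p = 0.00211, limma), past the fold threshold, and it was called without day 0 replicate 1. Id1 had 1659, 1085 and 937 on day 0, 2496, 1895 and 1498 on day 3, 2001, 1912 and 1861 in GFP-positive cells of day 4, 1669, 2016 and 3166 in GFP-negative cells of day 4, 3046, 3163 and 3047 in GFP-positive cells of day 5, and 2703, 2489 and 2541 in GFP-negative cells of day 5, with overlap between the gates on day 4, and its largest change was 0.99 (adjusted p = 0.0182, limma), from day 1 to day 2. Id4 went from 251, 189 and 132 on day 0 to 91.6, 91.3 and 107 on day 3, and was lower in GFP-positive cells on day 5, at 80.8, 75.3 and 90.5 against 109, 143 and 184, a difference of -0.79 (adjusted p = 0.0289, limma).

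**Figure D4:**
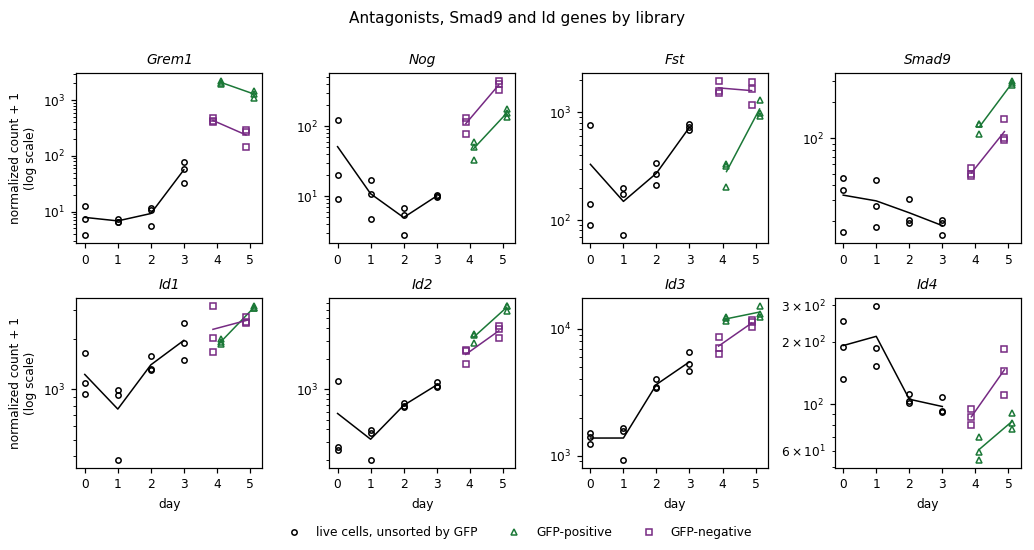
Normalized count + 1 (vertical, log scale) by day (horizontal) for Grem1, Nog, Fst, Smad9, Id1, Id2, Id3 and Id4, with 1 point per library and lines through the group means. Grem1 and Smad9 in GFP-positive cells (triangles) lie above GFP-negative cells (squares) on both days, and Fst lies below on day 4.

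The gate differences were set side by side for the 2 days, which share no library. Tdgf1, Nodal, Lefty1, Lefty2, Gdf3 and Bmp2 were called lower, and Grem1 higher, in GFP-positive cells on both days. Fst was called on day 4 alone, and Gdf1, Tgfb1, Bmp5, Bmp6 and Tgfbr2 on day 5 alone, although Bmp5 on day 4 was called under 2 other settings and Tgfb1 without 1 library. For none of these 6 did the day 4 and day 5 differences themselves differ enough to be called: the change was 2.05 (adjusted p = 0.238, limma) for Fst, -1.09 (adjusted p = 0.125, limma) for Gdf1, -0.62 (adjusted p = 0.811, limma) for Tgfb1, -1.12 (adjusted p = 0.721, limma) for Bmp5, -1.11 (adjusted p = 0.479, limma) for Bmp6 and -0.43 (adjusted p = 0.814, limma) for Tgfbr2. Over the 46 genes, 0 changes of the gate difference were called in this limma fit (background 0.109%, with 0.0762% higher and 0.0333% lower), 9 had an unadjusted p under 0.05 (background 9.4%) and 2, Bmp4 and Bmp7, had an adjusted p under 0.05 (1.1%). Without day 0 replicate 1, Bmp4 was called.

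**Figure D5:**
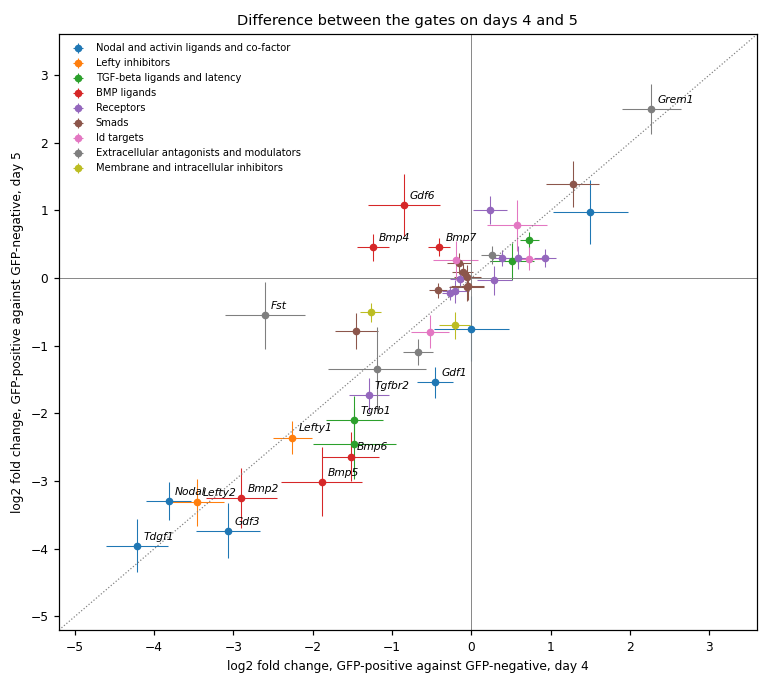
Log2 fold change between the gates (GFP-positive over GFP-negative) on day 4 (horizontal) and day 5 (vertical) for each of the 46 genes, with bars of 1 standard error, coloured by role, and a dotted line where both are equal. Genes called on either day, Bmp4, Bmp7 and Gdf6 are named, and most points lie near the line. Grem1 lies furthest to the top right, beyond Smad9, and the Nodal group lies at the bottom left.

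A list of 66 other genes of these pathways was counted in the same fit, of which 59 entered the tests. Of the 59, 9 were called higher and 7 lower from day 3 to the GFP-positive cells of day 4 (background 3.33% and 7.36%), and from day 3 to GFP-negative cells 10 higher and 0 lower (2% and 0.871%). Between the gates 1 was called higher and 10 lower in GFP-positive cells on day 4 (0.328% and 3.63%), and 0 higher and 11 lower on day 5 (0.4% and 4.61%). From day 0 to day 3 the counts were 8 higher and 12 lower (5.91% and 6.12%). Among the single-day steps before sorting, the first gave 0 higher and 3 lower (0.343% and 0.395%), and the third 5 higher and 0 lower (0.714% and 0.29%). From day 1 to day 2, 0 were called by limma (1.47% of all entries), with 28 at an unadjusted p under 0.05 (background 28.2%). The change of the gate difference from day 4 to day 5 gave 0 calls by limma (0.109%), with 14 at an unadjusted p under 0.05 (9.4%). From day 4 to day 5, 0 were called higher and 1 lower in the GFP-positive gate (0.595% and 0.89%), and 2 higher and 1 lower in the GFP-negative gate (0.762% and 0.509%). The median log2 fold change of the 59 was -0.19 between the day 5 gates, against -0.00169 for all entries. The lower genes included Cfc1, the second Nodal co-receptor, with a log2 fold change of -4.62 between the day 5 gates, Pmepa1, a TGF-β target that restrains Smads, with -4.13 between the day 4 gates, and Cer1, an antagonist of Nodal and BMP, with -3.78 between the day 4 gates. Msx1, a homeobox target of BMP, differed by -2.93 on day 4. Between the day 5 gates Eng, an endothelial co-receptor, differed by -3.25, Acvrl1, an endothelial type I receptor, by -2.98, Gdf15 by -3.03, Sost by -2.95 and Amhr2 by -2.91. From day 3 to the GFP-positive cells of day 4, Thbs1, which can activate latent TGF-β, changed by 5.19, Gdf10 by 4.24 and Pcsk5, a convertase of ligand precursors, by 3.40. These 12 were the largest by absolute change among the called genes of the list, with adjusted p from 2.46e-10 to 0.000506 (limma).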

How the data were processed

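RNA-seq values of 24 libraries were analysed. Per the labels and the study's methods, the authors pseudo-aligned reads with kallisto 0.43.1 to an index of coding regions and non-coding RNA from Ensembl (mm10), divided the estimates by DESeq2 size factors and deposited a normalized signal per gene, named normalized counts here, from TruSeq libraries of polyA RNA. Strandedness is not given in the sources used here. Columns with calls made by the authors (eye field, successive days, stable expression) were not used. Every per-sample column matched a sample description. Between 45.8% and 76.3% of low values were within 0.1 of whole multiples of 1 read, so reads could not be recovered and values were tested on a log scale.

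Values were tested as log2(normalized count + 1) with limma 3.58.1 in R 4.3.3 (1 mean per group, mean-variance trend) on entries that reached 10 normalized counts in 3 or more libraries. The calling procedure was tested on simulated data. The planted changes were all above the fold threshold, in genes well above the filter. The simulation therefore does not cover calls near the fold threshold or genes with few counts. Alternatives were pseudocounts of 0.5 and 5, no filter, a filter of 50, quantile normalization, TMM factors, no trend, only the groups compared, a replicate block, an adjusted p under 0.05 alone, and leaving out each library. Members and lists were chosen with earlier results of these data known. Every one of the 46 genes was accounted for, the 26 called at least once with values, and of the other pathway genes the 12 largest called. Overlaps and shared 31-base words came from GENCODE M21, where all 46 genes had the same start and end as in the file, and upstream sequences from RefSeq. These reference comparisons and the figures used Python 3.11.15 (numpy 2.4.6, pandas 2.3.3, matplotlib 3.10.9). In the fit of all libraries, p-values set each difference against a spread estimated over all groups. The samples came from the same reporter line, so variation between lines is not included.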

Additional observations from a re-analysis of the deposited data

Results flagged for a closer look

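The difference between GFP-positive and GFP-negative cells changed between days 4 and 5 for 2 genes at an adjusted p under 0.05 in the test of the change itself (limma with Benjamini-Hochberg adjustment), a looser threshold than the one used for calls. For Bmp4 the change was 1.70 (SE 0.29, adjusted p = 0.00306, limma), from -1.24 on day 4 to 0.45 on day 5, with every GFP-positive library below the GFP-negative libraries on day 4 and with overlap on day 5. Without day 0 replicate 1, a library outside this comparison that enters the shared estimate of the spread, the change of Bmp4 passed the threshold used for calls. For Bmp7 it was 0.86 (SE 0.20, adjusted p = 0.0301, limma), from -0.40 to 0.46. The GFP-positive libraries were all below the GFP-negative libraries on day 4 and all above them on day 5.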

How the results depend on the processing

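Of the 65 calls of these genes over the 11 comparisons, 37 were called under every alternative and 0 changed direction. The replicate block lost 2 (Fst between the day 4 gates at -2.60 and Tgfb3 from day 2 to day 3 at 1.59), and it left the count from day 0 to day 3 at 13. The numbers are not shown to pair samples: deviations of same-numbered samples correlated at -0.001 on average, every correlation was over 0.1 in 1 of 28 pairs of groups, and 9 of 24 libraries correlated best with their own number. By the study's methods, the samples of days 4 and 5 were sorted into both gates, so the gates of a day may share organoid pools. Between the gates the mean correlation was -0.062 on day 4 and 0.027 on day 5. The gates were tested as unpaired groups. Pseudocounts of 0.5 and 5 lost 3 and 5 calls, no filter 4, a filter of 50 0, quantile normalization 8, TMM factors 3, no trend 4, only the groups compared 17 and leaving out 1 library at a time (those compared, and day 0 replicate 1) 17. The last of these also added 16 calls.

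With an adjusted p under 0.05 and no fold threshold, the counts were 6 from day 0 to day 1, 16 from day 1 to day 2, 16 from day 2 to day 3, 31 from day 0 to day 3, 33 and 19 from day 3 to day 4 GFP-positive and GFP-negative cells, 24 and 21 between the gates on days 4 and 5, 11 and 13 from day 4 to day 5 in GFP-positive and GFP-negative cells, and 2 for the change of the gate difference; the shares of all entries past this threshold ranged from 1.1% to 43.6%. For calls at an adjusted p under 0.001 and a log2 fold change beyond 1.5, the count from day 0 to day 1, which was 2, became 0 with only the groups compared. From day 1 to day 2 it went from 2 to 1 with a pseudocount of 0.5, with no filter, under quantile normalization and without the trend, 0 with TMM factors, and 0 to 2 with 1 library left out. From day 2 to day 3 it went from 5 to 3 with a pseudocount of 5 and without the trend, 2 with only the groups compared, and 1 to 5 with 1 library left out. With 1 library left out it was 3 to 6, against 5, from day 3 to day 4 GFP-negative cells, 1 to 2, against 1, from day 4 to day 5 GFP-negative cells (2 under quantile normalization) and 0 to 1, against 0, for the change of the gate difference. Apart from fits with fewer samples, the cause was not tested. Values near 10 normalized counts, as for Inhbb, Grem1 before day 3, Gdf6 and Inhba, rest on few reads, and no count model was used.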
